A study of Mus musculus with 6 samples.

Results

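The Myc network and the genes of ribosome biogenesis were followed in 4T1 cells, mouse mammary carcinoma cells that serve as a triple-negative breast cancer model. The cells carried the label 0 nM or 100 nM PFOS (perfluorooctane sulfonate, a persistent fluorinated surfactant) and were kept for 35 passages, with 3 libraries of poly(A) RNA in each group. The members were 40 listed genes, 8 of the Myc network and 32 of ribosome biogenesis, out of 28418 genes with values. A mean of at least 1 FPKM (fragments scaled to transcript length and to all mapped fragments) over the 6 libraries was required for testing, which left 39 members among 11741 genes. Just inside that limit stood Mxd4 at a mean of 1.31 FPKM and just outside it Mxd1 at 0.885 FPKM. The series asks what long culture with PFOS at an environmental level does to these cells, and the comparison here was 100 nM against 0 nM.

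Myc is a transcription factor of the basic helix-loop-helix leucine zipper class that binds DNA only as a dimer with Max. The same partner is used by the Mxd proteins, Mxi1 and Mnt, which repress at the E-box, the DNA word CACGTG, where Myc activates. Ribosome biogenesis starts in the nucleolus, where RNA polymerase I copies the ribosomal RNA genes. Small nucleolar ribonucleoproteins (snoRNPs) then modify the transcript, and assembly factors cut, fold and carry it as the small and the large subunit. Many genes of this pathway are textbook targets of Myc, and the pathway is known to run high in growing tumour cells.

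The E-box was looked for in the 250 bases before the start of each gene in RefSeq promoter sequences (build GRCm38.p6), because it is the word that Myc and Max read. Of the 34 members with an entry, 5 held CACGTG, or 14.7%, against 10.2% of the 8282 tested genes with an entry, so the share among the members lay near the background. Counted over promoters, it was 5 of 43 for the members (11.6%), 8.46% of the 10573 promoters of tested genes and 6.02% of all 32851. Fbl, Npm1, Bop1, Rrs1, Rrp12 and Myc have no entry. The 5 were Nop2, Rrn3, Mnt, Mxd4 and Mlx. The sequences of Nop2 and Rrn3 are shown whole, because these are the members that passed the test described below, and 46 bases around the motif are shown for the other 3, which belong to the Myc network. All run 5′ to 3′ on the gene's strand, with the E-box in capitals. The word is its own reverse complement, so 1 search covers both strands.
Nop2, chr6:125131633-125131882, plus strand, motif starting 60 bases before the start: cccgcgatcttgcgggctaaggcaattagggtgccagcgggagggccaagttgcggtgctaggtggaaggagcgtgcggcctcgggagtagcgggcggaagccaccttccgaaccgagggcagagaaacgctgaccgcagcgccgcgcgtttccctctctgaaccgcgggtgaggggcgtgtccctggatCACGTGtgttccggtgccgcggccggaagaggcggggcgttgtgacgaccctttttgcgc
Rrn3, chr16:13780449-13780698, plus strand, with a pair of motifs: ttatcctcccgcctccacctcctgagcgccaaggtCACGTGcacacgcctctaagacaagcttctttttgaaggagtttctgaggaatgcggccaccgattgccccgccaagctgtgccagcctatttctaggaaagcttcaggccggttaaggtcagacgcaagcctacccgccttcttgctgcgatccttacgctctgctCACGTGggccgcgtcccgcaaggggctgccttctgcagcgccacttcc
Mnt, chr11:74830781-74830826, plus strand: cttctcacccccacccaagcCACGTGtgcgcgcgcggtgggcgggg
Mxd4, chr5:34187904-34187949, minus strand: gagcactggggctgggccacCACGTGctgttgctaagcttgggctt
Mlx, chr11:101087230-101087275, plus strand: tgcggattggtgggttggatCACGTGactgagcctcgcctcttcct
A match describes the sequence only. Nop2 and Rrn3 share the word and moved in opposite directions.

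The 6 libraries were alike in their sums, 306716 to 309381 FPKM, and within a group their profiles over genes correlated at 0.988 to 0.994. The files hold no read depth, so the precision of a value is known only from the replicates. Separate cultures are not named in the labels for the 3 libraries of a group. The p-values therefore measure the spread between these libraries only, and that spread may be technical. All 7 epithelial markers looked for were present in every library, and they summed to 729.7 to 730.2 FPKM at 0 nM and 762.4 to 819.2 FPKM at 100 nM. Of 12 leukocyte markers, 4 to 6 were at 0 in each of the other 5 libraries and 0 in replicate 3 at 100 nM, where the T cell genes Cd3e and Gzmb stood at 0.66 and 14.94 FPKM. The summed leukocyte markers were 146.2 to 185.1 FPKM at 0 nM and 144.5, 277.2 and 313.1 FPKM at 100 nM. Most of each sum was Lyz2, at 103.24 to 147.18 FPKM at 0 nM and 111.49, 240.43 and 185.11 FPKM at 100 nM. Cd14 was at 12.65, 8.41 and 65.16 FPKM at 100 nM. Replicate 3 at 100 nM enters every comparison. The called genes, the counts over the list and the members nearest to the threshold are therefore also given without it. The part of those markers in the results was not tested.

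Across the list, 2 of the 39 tested members changed (limma on log2(FPKM + 1), Benjamini-Hochberg adjusted over all genes, threshold 0.05). Nop2, a large subunit factor, rose and Rrn3, an initiation factor of RNA polymerase I, fell. Over all tested genes 4.15% passed, 1.69% higher and 2.46% lower, so the members' count lay near the background. Their median difference was 0.0054 on the log2(FPKM + 1) scale, against 0.0052 for all genes tested. In bulk RNA a change in the level per cell and a change in the mix of cells cannot be told apart.

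The members were measured tightly. Their median coefficient of variation between libraries of a group was 2.4%, against 4.56% over all tested genes. Their median level was also higher, at 30.7 FPKM against 7.62 FPKM, and spread was not compared at equal level. On the FPKM + 1 scale, the 95% interval of the difference lay within a 1.2-fold change either way for 38 of 39 members. The exception was Mxd4, and 73.5% of all genes tested lay within that bound. Within 1.1-fold lay 24 of 39 members (29.1% of all genes tested). For low genes a fold on this scale is smaller than in FPKM, so more genes could exceed these bounds in FPKM. These intervals are not adjusted for the number of genes.

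**Figure D1:**
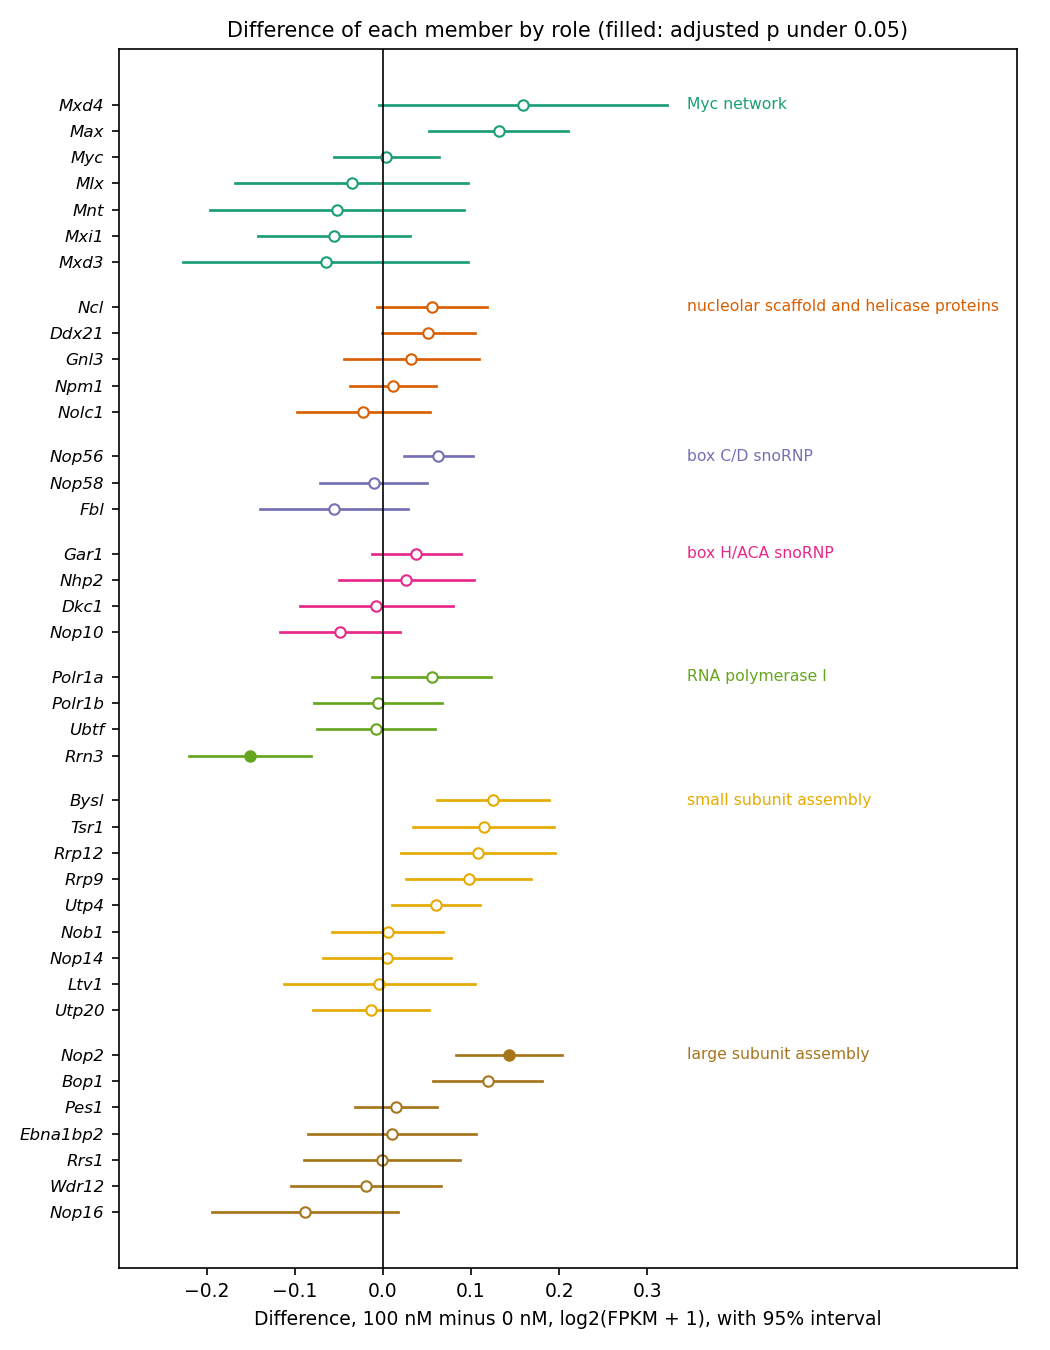
Difference of the 39 tested members, 100 nM minus 0 nM on the log2(FPKM + 1) scale, by role, with 95% intervals from limma. Filled points passed at an adjusted p under 0.05 (Nop2 and Rrn3). Points lie between -0.15 and 0.16.

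Myc (ENSMUSG00000022346, chromosome 15, 61985391 to 61990350) was the most abundant gene of its network. Its level was 125.00, 122.58 and 119.80 FPKM in the 0 nM libraries and 121.32, 125.77 and 121.23 FPKM in the 100 nM libraries. The groups overlapped, at 122.5 ± 2.6 and 122.8 ± 2.6 FPKM (SD, n = 3 each). The difference was 0.0037 on the log2(FPKM + 1) scale, with a 95% interval of -0.06 to 0.06, that is, a ratio of 0.962 to 1.045 on the FPKM + 1 scale. The limma adjusted p was 0.954, and an exact two-sided permutation test over the 6 libraries gave p = 0.9, where the smallest p that 3 against 3 allows is 0.1.

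Max, the shared partner (chromosome 12, 76937269 to 76962201), stood at 22.18, 22.86 and 23.69 FPKM at 0 nM and at 24.45, 25.51 and 25.60 FPKM at 100 nM. All 100 nM libraries lay above all 0 nM libraries. The difference of 0.13 ± 0.03 (SE) on the log2(FPKM + 1) scale did not pass (limma adjusted p = 0.0818, and 0.0606 to 0.364 over 18 alternatives). Without replicate 3 at 100 nM it was 0.12 (adjusted p = 0.171). The ratio of Myc to Max, both levels per length, was 5.057 to 5.636 at 0 nM and 4.736 to 4.962 at 100 nM.

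Of the partners that compete with Myc for Max, Mxi1 was the most abundant, at 17.23, 18.30 and 17.84 FPKM at 0 nM and 17.69, 17.10 and 16.45 FPKM at 100 nM. Mnt, a repressor found in dividing and resting cells alike, stood at 6.10, 5.87 and 6.66 FPKM and at 5.70, 6.44 and 5.73 FPKM. Mxd3, the Mxd protein of S phase, was at 5.01, 4.49 and 4.93 FPKM and at 4.13, 4.56 and 4.99 FPKM. In each of these 3 genes the groups overlapped. The mean FPKM at 100 nM differed from that at 0 nM by -3.99% for Mxi1, -4.08% for Mnt and -5.2% for Mxd3, and none passed (limma adjusted p = 0.444, 0.683 and 0.641).

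The remaining Mxd genes were rare. Mxd4 stood at 1.31, 1.1 and 1.13 FPKM at 0 nM and at 1.49, 1.46 and 1.35 FPKM at 100 nM, without overlap. Its difference of 0.16 was the largest in size among the members on the log2(FPKM + 1) scale and did not pass (limma adjusted p = 0.251). Mxd1, known from differentiating cells, was under the limit for testing, at 0.73, 0.66 and 0.76 FPKM against 0.88, 0.82 and 1.46 FPKM. The value of 1.46 FPKM is that of replicate 3 at 100 nM, the library with T cell transcripts. Mlx, which forms a parallel network with the Mondo proteins and also pairs with Mxd proteins and Mnt, was at 14.21 to 16.44 FPKM and 14.38 to 15.49 FPKM. It overlaps Psmc3ip on the other strand by 385 exonic bases.

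Ordered by mean level, the network ran Myc, Max, Mxi1, Mlx, Mnt, Mxd3, Mxd4 and Mxd1. Over the 6 libraries the ranges of neighbours in this order overlapped for Mxd4 and Mxd1 only. Those of Mxi1 and Mlx all but met, at 16.45 FPKM in the lowest Mxi1 library and 16.44 FPKM in the highest Mlx library. Summed over Mxd1, Mxd3, Mxd4, Mxi1 and Mnt, the competing partners came to 30.38, 30.42 and 31.32 FPKM at 0 nM and 29.89, 30.38 and 29.98 FPKM at 100 nM. Myc exceeded that sum 3.825 to 4.115 times at 0 nM and 4.044 to 4.14 times at 100 nM, with overlapping groups. No network member passed the limma test, and 1 of the 7 tested, Max, had an unadjusted p under 0.05 (20.7% of all tested genes did).

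**Figure D2:**
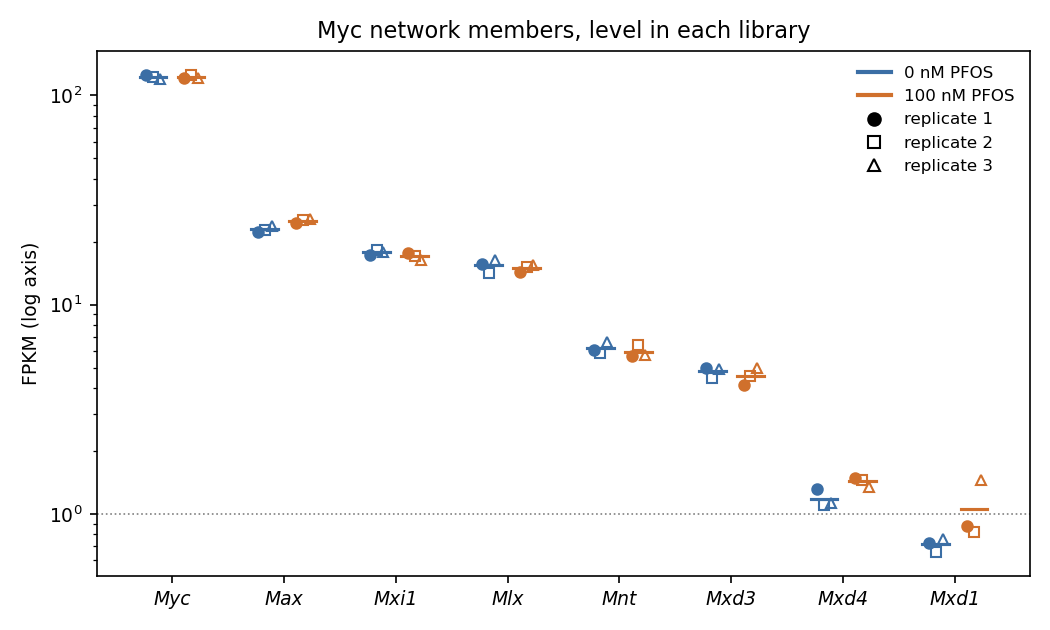
Level of the 8 Myc network members in each library (FPKM, log axis), with bars at the group means of 3 libraries and a dotted line at the limit of 1 FPKM. Myc lies at 119.80 to 125.77 FPKM in all 6 libraries, and the high Mxd1 value at 100 nM is replicate 3.

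RNA polymerase I showed the single fall. Rrn3, also called TIF-IA, brings the polymerase to the promoter of the ribosomal RNA genes (ENSMUSG00000022682, chromosome 16, 13780708 to 13814839). Its level was 19.12, 19.78 and 19.40 FPKM at 0 nM and 17.79, 16.88 and 17.54 FPKM at 100 nM. All libraries at 100 nM were below all at 0 nM, with means of 19.43 ± 0.331 and 17.40 ± 0.47 FPKM (SD, n = 3 each). This is a difference of -0.15 ± 0.03 (SE; log2(FPKM + 1) scale), which passed at a limma adjusted p of 0.0425. Leaving out any 1 library ended the call, at adjusted p = 0.0845 to 0.14. The size hardly moved, at -0.17 to -0.13, and was -0.16 without replicate 3 at 100 nM.

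Rrn3 lies among genes that were lower as a group. Of its 19 tested protein-coding neighbours with midpoints within 2.5 Mb, 17 were lower at 100 nM. The neighbours' median difference was -0.16, and 4 of them fell (Mcm4, Nde1, Abcc1 and Cpped1). When each gene was centred, library by library, on the median of its neighbours, a setting chosen after seeing the data, the difference of Rrn3 was 0.0052 (limma adjusted p = 0.966). The other 3 genes of the role did not pass. Polr1a, the largest catalytic subunit, stood at 10.17 to 10.55 FPKM and 10.66 to 10.87 FPKM, higher without overlap. Polr1b, the other catalytic subunit, stood at 12.79 to 13.25 and 12.58 to 13.24 FPKM, and Ubtf, which bends ribosomal DNA, at 32.17 to 33.83 and 31.95 to 32.95 FPKM. Their limma adjusted p was 0.326, 0.943 and 0.906, and their 95% intervals spanned -0.08 to 0.12 in all.

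Large subunit assembly held the single rise. Nop2, which methylates the 28S ribosomal RNA and marks proliferating nucleoli (ENSMUSG00000038279, chromosome 6, 125131909 to 125144753), stood at 57.19, 58.66 and 55.67 FPKM at 0 nM and at 63.65, 63.69 and 62.33 FPKM at 100 nM. The lowest library at 100 nM exceeded the highest at 0 nM by more than the range of either group. Means were 57.17 ± 1.5 and 63.22 ± 0.774 FPKM (SD, n = 3 each), and the difference was 0.14 ± 0.03 (SE; limma adjusted p = 0.0351). Without any 1 library the call was lost (adjusted p = 0.0594 to 0.114) while the difference stayed at 0.12 to 0.16, and at 0.15 without replicate 3 at 100 nM. Of 39 tested neighbours, 34 were higher, with a median difference of 0.06, and among them Phb2 and Usp5 rose and Ing4 fell. Centred on its neighbours, Nop2 had a difference of 0.07 (limma adjusted p = 0.201).

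Bop1, Pes1 and Wdr12 form the PeBoW complex of 28S rRNA processing. Bop1 stood at 36.15, 36.72 and 38.05 FPKM at 0 nM and at 40.13, 39.85 and 40.72 FPKM at 100 nM. Its groups did not overlap, and its difference of 0.12 just missed the threshold (limma adjusted p = 0.0576). It passed with a limit of 5 FPKM, with quantile normalization and among protein-coding genes only (adjusted p = 0.0433, 0.0419 and 0.0423), and was at 0.11 without replicate 3 at 100 nM (adjusted p = 0.124). Pes1 stood at 61.29 to 61.71 and 61.57 to 63.16 FPKM and Wdr12 at 4.79 to 5.04 and 4.77 to 4.94 FPKM, both with overlapping groups, and differences between the 3 genes were not tested. Pes1 shares 34.8% of its 31-base words with other genes, the highest share among the members, and Wdr12 12.4%, so their levels are uncertain. The groups of Nop16, Ebna1bp2 and Rrs1 overlapped. Rrs1 shares 15.8% of its words with other genes, which leaves its level uncertain. Nop16 had the lowest difference of the role, at -0.09 (means of 42.55 and 39.96 FPKM, SD 2.09 and 1.59, n = 3 each, with a limma adjusted p of 0.319), and 31 of its 38 neighbours were lower.

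**Figure D3:**
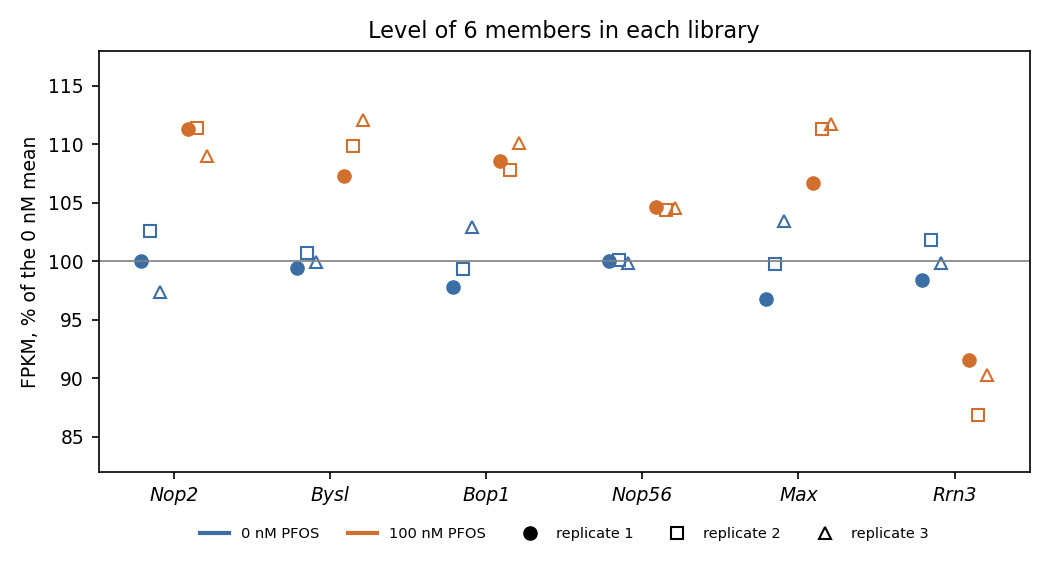
Level of 6 members in each library as a percentage of the gene's 0 nM mean (100). The members are those past the threshold, Nop2 and Rrn3, and 4 others whose groups did not overlap. Open orange triangles are replicate 3 at 100 nM. That it lies on the side of the other 100 nM libraries follows from choosing genes without overlap.

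Small subunit assembly was the role with the most separated groups. In 5 of its 9 members all 100 nM libraries exceeded all 0 nM libraries, where 13.7% of all tested genes did, and none passed the limma test (5 had an unadjusted p under 0.05). Bysl, which is needed for export and maturation of the 40S precursor, went from 13.30, 13.47 and 13.37 FPKM at 0 nM to 14.36, 14.70 and 15.00 FPKM at 100 nM (difference 0.13, limma adjusted p = 0.054). Tsr1, a GTPase-like factor of the same precursor, stood at 32.25, 33.31 and 31.81 FPKM and at 35.62, 33.79 and 36.27 FPKM (difference 0.11, adjusted p = 0.12). Bysl passed under the same 3 alternatives as Bop1, at adjusted p = 0.0399 to 0.0479. Without replicate 3 at 100 nM the difference was 0.11 for Bysl and 0.09 for Tsr1 (limma adjusted p = 0.118 and 0.224). It shares 10.2% of its 31-base words with other genes, most with Ccnd3, and Tsr1 33.2%, most with Srr on the other strand, so their values could include reads of those genes if strand was not used in quantification.

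The other separated members of the role were Rrp12, Rrp9 and Utp4. Rrp12, an export factor, stood at 13.06 to 13.62 and 13.92 to 15.11 FPKM. Rrp9, a protein of the U3 snoRNP that guides the first cleavages, stood at 21.06 to 21.71 and 22.25 to 23.61 FPKM. Utp4, part of the complex that starts the small subunit processome and the most abundant of the role, stood at 51.63 to 53.36 and 54.51 to 55.16 FPKM. Limma adjusted p was 0.163, 0.13 and 0.17. Around Rrp9, 60 of 69 neighbours were higher, with a median difference of 0.07, and centring on them left 0.03. The endonuclease gene Nob1, Nop14, Ltv1 and Utp20 had overlapping groups, and Utp20 had the lowest difference of the role, at -0.01.

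None of the 7 genes of the snoRNP core proteins passed the limma test, and 1, Nop56, had an unadjusted p under 0.05. Of the box C/D core, which guides 2′-O-methylation, Nop56 stood at 81.53, 81.59 and 81.41 FPKM at 0 nM and at 85.27, 85.06 and 85.24 FPKM at 100 nM. The 3 libraries of each group lay close together (coefficient of variation 0.123%), and a difference of 4.51% in the means separated the groups. After limma shared the spread between genes, the difference of 0.06 ± 0.02 (SE) did not pass (adjusted p = 0.0909). Without replicate 3 at 100 nM it was 0.06 (adjusted p = 0.152). Nop58, its partner in the same particle, was at 19.77 to 20.60 and 19.83 to 20.22 FPKM. Fibrillarin, the methyltransferase encoded by Fbl, was at 43.92 to 46.16 and 41.45 to 44.87 FPKM, with a difference of -0.06 (limma adjusted p = 0.426). Nop56 shares 22.4% and Fbl 21.8% of their words with other genes, which leaves their levels uncertain.

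Of the box H/ACA core, which guides pseudouridylation, Gar1 had separated groups, at 32.97 to 33.82 and 34.08 to 34.27 FPKM (difference 0.04, limma adjusted p = 0.368). Nhp2, the most abundant of the role, stood at 77.74 to 83.70 and 80.72 to 82.59 FPKM. The pseudouridine synthase gene Dkc1 stood at 25.05 to 26.39 and 24.50 to 26.36 FPKM, and Nop10 had the lowest difference, at -0.05 (37.77 to 39.83 and 36.75 to 37.83 FPKM). Nop56, Nop58, Dkc1, Ncl, Gnl3 and Tsr1 also carry small nucleolar RNA genes inside them, 18 in all. Of those, 3 reached a mean of 1 FPKM in these poly(A) libraries.

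Among the nucleolar scaffold genes, Npm1, the nucleophosmin gene and the most abundant of all members, stood at 764.33, 789.07 and 762.54 FPKM at 0 nM and at 785.51, 781.44 and 766.91 FPKM at 100 nM. The groups overlapped, with a 95% interval of -0.04 to 0.06, and 29.4% of its words occur in other genes, most in Gm9118, so its level is uncertain. Ncl, the nucleolin gene, had the highest difference of the role, at 140.20, 143.88 and 142.25 FPKM and 151.26, 149.08 and 142.85 FPKM (0.06, limma adjusted p = 0.295), although 16 of its 18 neighbours were lower. Replicate 3 at 100 nM lay within the 0 nM range, and without it the difference was 0.08. Ddx21, a helicase that links polymerase I transcription with processing, had separated groups at 55.96 to 56.99 and 57.68 to 59.68 FPKM (limma adjusted p = 0.254). Gnl3, the nucleostemin gene, and Nolc1, a chaperone of snoRNPs with the lowest difference of the role at -0.02, had overlapping groups.

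Counted over the list, groups did not overlap for 14 of 39 members (35.9%, against 26.9% of all tested genes). Of these, 13 were higher at 100 nM and 1 was lower, which is 33.3% and 2.56% of the members, against 13.7% and 13.3% of all tested genes. Likewise 9 members were higher and 1 lower at an unadjusted p under 0.05, where 10.6% and 10.2% of all genes were. Among all 39 members, however, 22 means were higher and 17 lower. Without replicate 3 at 100 nM, 15 members were separated higher and 1 lower (38.5% and 2.56%, against 19.7% and 17.6% of all tested genes), with Ncl and Pes1 added, and 0 passed the limma test (12 at an unadjusted p under 0.05). The 130 other tested factors of the pathway, taken from 4 further lists, had separated groups in 20 cases higher (15.4%) and 12 lower (9.23%), with a median difference of 0.02.

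**Figure D4:**
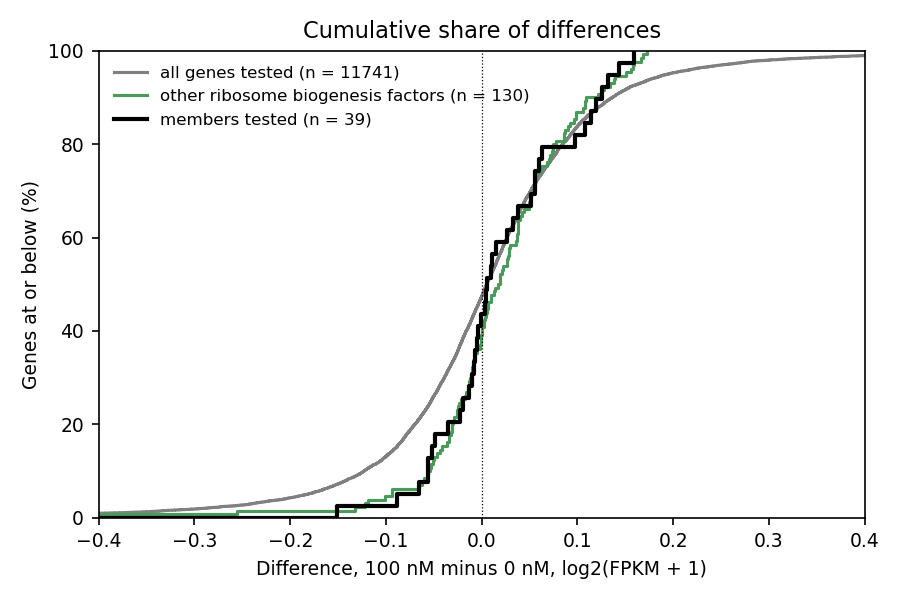
Cumulative share of genes by difference, 100 nM minus 0 nM on the log2(FPKM + 1) scale, cropped at -0.4 and 0.4. The medians are 0.0054 for the 39 members, 0.02 for the 130 other factors and 0.0052 for all 11741 genes, and both gene sets spread less than all genes.

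The further lists are read against 4.15% of all tested genes past the threshold and 20.7% at an unadjusted p under 0.05, and most of their counts lay near or below those shares. In them, 1 of 47 other small subunit factors rose and 1 fell, Tsr2, at 7.91 and 9.01 FPKM, and Imp3, of the U3 snoRNP, at 58.32 and 53.52 FPKM (means at 0 and 100 nM). Of 50 other large subunit factors 1 rose and 3 fell, led by Rpf1 (means of 20.95 and 13.47 FPKM, limma adjusted p = 0.00115) and Lsg1, a GTPase of late 60S maturation (10.48 and 8.61 FPKM). Of 18 other RNA polymerase I factors and 16 other snoRNP and modification factors, 0 passed the limma test in either list (4 and 2 at an unadjusted p under 0.05). Among 21 RNA polymerase III and 5S rRNA factors 1 rose, Gtf3a, which binds the 5S gene, at means of 14.42 and 16.66 FPKM (limma adjusted p = 0.0108). None of 13 RNA exosome genes, 20 other partners and regulators of Myc and Max or 10 genes of nucleolar stress and p53 surveillance passed (1, 5 and 1 at an unadjusted p under 0.05).

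Other textbook Myc targets moved in both directions while Myc itself did not pass. Of 33 tested, 2 rose (Phb2 and Nampt) and 3 fell (Odc1, Umps and Tfrc), a share of 15.2% against 4.15% of all tested genes. Several of these lie among neighbours that moved alike, as given below. At an unadjusted limma p under 0.05 were 14 of the 33, 10 higher and 4 lower, where 20.7% of all tested genes were. Groups did not overlap for 13 higher and 5 lower (39.4% and 15.2%, against 13.7% and 13.3% of all tested genes). The list was chosen with earlier results of these data known, so its shares are no independent test. Its median level was 68.7 FPKM and its median coefficient of variation 1.93%, against 7.62 FPKM and 4.56% over all tested genes. Shares were not compared at equal level. Odc1, the ornithine decarboxylase gene, fell from 657.5 ± 6.67 FPKM to 460.4 ± 1.73 FPKM (SD over 3 libraries; limma adjusted p = 0.000188). Umps, of pyrimidine synthesis, fell from 48.85 ± 0.414 FPKM to 34.86 ± 1.01 FPKM (limma adjusted p = 0.00103). Without replicate 3 at 100 nM, 7 of the 12 genes called in the further lists were still called, among them Odc1, Umps, Rpf1 and Gtf3a. Tsr2, Imp3, Lsg1, Rsl1d1 and Nampt were not (limma adjusted p = 0.0781, 0.109, 0.072, 0.0954 and 0.096).

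Position was shared by several of these genes. Of the 12 called genes of the further lists, 7 had at least 80% of 10 or more neighbours on 1 side, as Rrn3 and Nop2 do. Phb2, which is among the 7, is itself a neighbour of Nop2, so these stretches are not all separate. Of the 12, 7 fell, and 4 of those lie on chromosome 16 like Rrn3. The same shares over all called genes were not computed, so these counts are not read as traits of the lists. Whether the 4 lie in separate stretches was not examined. Around Lsg1, 25 of 26 neighbours were lower, around Umps 36 of 37 and around Rpf1, on chromosome 3, 18 of 18. Centred on the neighbours, the difference went from -0.26 to 0.0087 for Lsg1, from -0.48 to -0.21 for Umps and from -0.60 to -0.23 for Rpf1 (limma adjusted p when centred = 0.949, 0.0164 and 0.0319). The rest in such stretches, Tsr2, Rsl1d1, Tfrc and Phb2, did not pass when centred (limma adjusted p = 0.227, 0.597, 0.463 and 0.167). Outside them Imp3, Mybbp1a and Gtf3a still passed and Nampt did not (limma adjusted p = 0.0467, 0.0383, 0.0304 and 0.315). All 8 tested neighbours of Odc1 were lower, with a median difference of -0.07, but 8 were too few for Odc1 to be centred. Among the members, 8 of 37 with at least 10 neighbours lay in such a stretch (21.6%, against 15.7% of all tested protein-coding genes), and 7 of the 8 moved with their neighbours, Ncl being the exception. Over all such protein-coding genes 82.2% did, close to the members' 87.5%. Mxd3 and Nop16 lie 735078 bases apart in the same stretch and are counted separately, so the 8 members are not 8 separate stretches. For Max, 22 of 24 neighbours were higher and centring left 0.07 (limma adjusted p = 0.364).

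**Figure D5:**
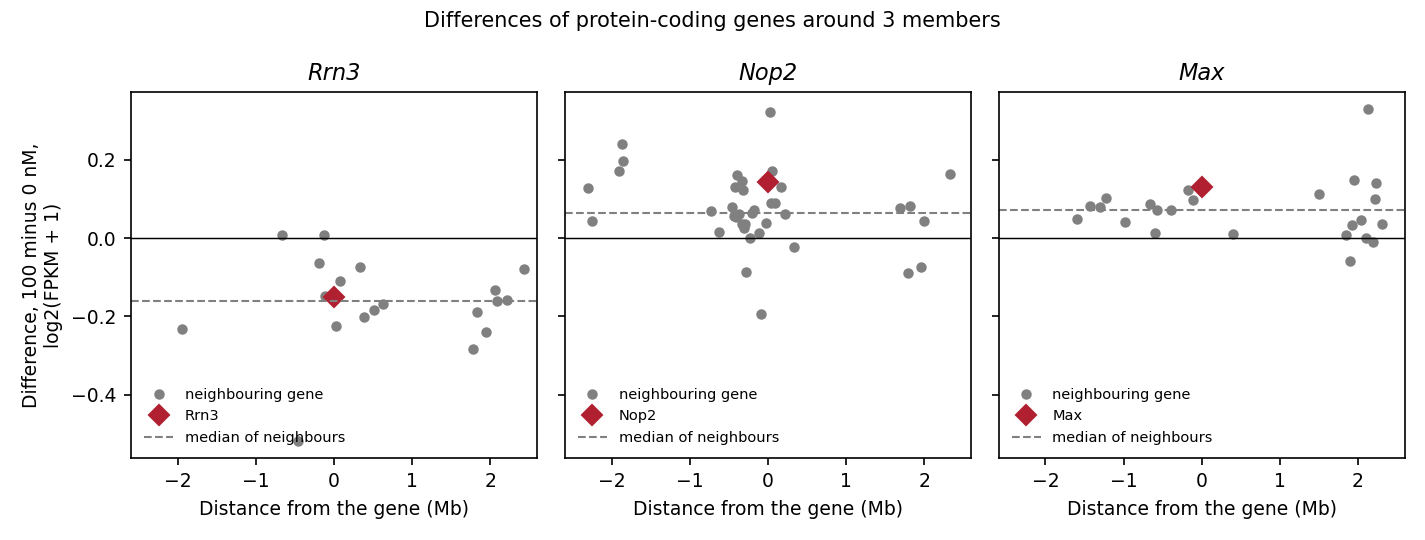
Differences of tested protein-coding genes within 2.5 Mb of Rrn3, Nop2 and Max against distance between midpoints (Mb), with the member as a diamond and the median of the neighbours dashed. Rrn3 lies at the median of its neighbours (-0.15 and -0.16), Nop2 and Max above theirs (0.14 and 0.06, 0.13 and 0.07).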

How the data were processed

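The deposited values are FPKM per gene in 1 file per library, written to 2 decimals. Per the submitters' processing notes, the authors used fastp, HISAT2 and StringTie, naming mm10 and also GRCh38. The sources used here give no versions, no role for GRCh38 and no strand setting. Symbols came from GENCODE M21 (28350 of 28418 identifiers matched), and 25603 have the same coordinates there, so the files' coordinates belong to GRCm38.

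FPKM are not counts, so limma-trend 3.58.1 (R 4.3.3) was run on log2(FPKM + 1) as a two-sided test of 100 nM minus 0 nM. Genes needed a mean of 1 FPKM or more over all libraries, with Benjamini-Hochberg adjustment over all of them. Fold changes on that scale understate changes of low genes. In simulated data for this comparison over 11741 genes, 6% of 50 genes changed 1.1-fold were recovered. Of as many changed 1.2-fold the test found 42%, for 1.5-fold 84% and for 2-fold 98%. There were 123 calls, 8 of them false, and unchanged data gave 0 calls. The measured data gave 487 calls, and the adjustment is looser when more genes change, so recovery there may differ. Words of 31 bases shared with other genes' transcripts were counted on both strands. Python 3.11.15 was used for the rest.

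The members and lists were chosen with earlier results of these data known. Named were all network members, the biogenesis members past the threshold, the highest, lowest and most abundant of each role, and up to 2 changed genes per further list. Other members, other called genes of the further lists and neighbouring genes were named after their values were seen. Alternatives covered pseudocounts, filters, scaling, moderation, left-out libraries and a block by replicate number, and centring on neighbours was added after seeing the data.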

Additional observations from a re-analysis of the deposited data

How the results depend on the processing

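The number of members called depended on the settings. The difference of Nop2 was 0.12 to 0.16 and that of Rrn3 -0.17 to -0.13 under all alternatives but centring on neighbours, which gave 0.0731 and 0.0052. Against 1 member higher and 1 lower of 39, and 487 of all genes, 3 higher and 1 lower were called with a limit of 5 FPKM, with quantile normalization and among protein-coding genes only (Bop1 and Bysl in addition). In 11 of 18 alternatives 0 higher and 0 lower members were called by limma, with 9 to 12 members at an unadjusted p under 0.05. In these the count of all genes was 204 with no filter, 294 without the trend, 194 when centred on neighbours, 74 without replicate 3 of both groups and 122 to 289 without any 1 library. The replicate number as a block gave 58 genes and 0 members. Deviations from the group means correlated at -0.03, -0.05 and 0.0065 between same-numbered libraries, so no pairing was taken from the numbers. Fewer samples leave fewer degrees of freedom; for the other settings the cause was not tested.

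No reversal concerned a called member except Rrn3, at 0.0052 when centred on neighbours. Centring also turned Ltv1 (0.0409), Mxd3 (0.0484), Nop16 (0.026), Nop58 (0.0063) and Ebna1bp2 (-0.002). Quantile normalization turned Ubtf (0.0047), Npm1 (-0.0311) and Rrs1 (0.0115). Without replicate 3 of both groups the sign turned for Myc (-0.003), Mnt (0.0157), Nhp2 (-0.0033), Utp20 (0.0063), Nolc1 (0.0047), Ltv1 (0.0341), Ubtf (0.0282), Nop58 (0.0069), Dkc1 (0.0304) and Rrs1 (0.0242). Leaving out 1 library gave -0.0137 to 0.0185 for Myc, -0.0164 to 0.022 for Nop14, -0.0099 to 0.0189 for Nob1, -0.0191 to 0.0151 for Polr1b, -0.0282 to 0.025 for Dkc1, -0.0407 to 0.0045 for Nolc1, -0.0892 to 0.0095 for Mlx, -0.0461 to 0.0256 for Ltv1, -0.0206 to 0.0146 for Ubtf, -0.0236 to 0.0047 for Nop58, -0.0317 to 0.0337 for Rrs1, -0.0251 to 0.0494 for Ebna1bp2 and -0.0261 to 0.0006 for Utp20. In the other 20 members no alternative turned the direction. These FPKM come without depth. In the simulated data over 11741 genes, 6% of 50 genes changed 1.1-fold, a size close to that of Nop2 and Rrn3, were recovered. The members varied less between libraries of a group than all tested genes (median coefficient of variation 2.4% against 4.56%). Recovery at the members' own spread, or with as many calls as in the measured data, was not tested.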
